A study of Mus musculus with 12 samples.

Results

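Heat-shock proteins and J-domain chaperones were taken as every gene whose annotated symbol begins with Hspa, Hspb, Hspd, Hspe, Hsph, Hsp90 or Dnaj and that had a probe set annotated to that symbol alone. The rule gave 68 genes of the 22180 genes measured, 27 with Hsp symbols and 41 with Dnaj symbols. Each gene was represented by its probe set with the highest mean, and 5 of the 68 genes had several such probe sets. A further 15 probe sets list a member symbol beside another gene and were not used in the tests. Hsp90ab1 and Dnaja1, constitutive members of the family, had no probe set of their own and were not analysed here.

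Total RNA was measured on 12 whole-transcript arrays from dendritic cells (DCs) and their bone marrow progenitors. All cells came from C57Bl/6 mice with 1 GFP reporter allele at Zbtb46 (N8 Zbtb46GFP/+), analysed at steady state, with 8 to 10 littermates harvested and populations sorted to over 95% purity. No group without the reporter allele was analysed here. Common DC progenitors (CDPs, 3 arrays) were lineage-negative, CD117 intermediate, CD135+, CD115+, CD11c- and MHC II-. Pre-CD8 cells (2 arrays) were lineage-negative, CD135+, CD117 intermediate, Siglec H-, CD11c+ and MHC II intermediate. Pre-CD4 cells (2 arrays) were lineage-negative, CD135+, CD117 low, CD115+, CD11c+ and MHC II-. These marrow populations were released by mortar and pestle. The spleen DCs were released with collagenase B and DNAse1: CD172a DCs (2 arrays) were CD11c+, MHC II+ and CD172a+, and CD24 DCs (3 arrays) were CD11c+, CD24+, CD172a- and, in the label, MHC II-. Tissue, digestion and maturation therefore cannot be told apart in any comparison of a spleen with a marrow population. Nothing in the labels says whether arrays of a population came from separate mice, so the p-values measure the spread between these arrays, which may be technical.

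Chaperones of the HSP70 family bind exposed stretches of unfolded protein and release them in a cycle driven by ATP. J-domain proteins bring clients to HSP70 and start ATP hydrolysis, and HSP110 proteins and other exchange factors reset the cycle. HSP90 acts later on partly folded clients such as kinases, while small heat-shock proteins hold unfolded clients without ATP. Heat and proteotoxic stress raise the inducible members through heat-shock factor 1, which binds heat-shock elements, and the reticulum members through the unfolded protein response, which acts on reticulum stress elements. Dendritic cells are secretory and antigen-presenting cells.

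Promoter windows from RefSeq (GRCm38.p6, 250 bases before to 50 bases after an annotated start) were matched by symbol for 56 of the 68 genes. They were searched on both strands for the heat-shock element, written as 3 alternating units of GAA and TTC with 2 bases between units, for the single inverted pair GAANNTTC that lies within it, for the CCAAT box, and for the reticulum stress element, a CCAAT box followed after 9 bases by CCACG. The 3-unit element was found in 4 of 56 members (7.14%), Dnajb6, Hspd1, Hspe1 and Hsph1, and in 0.662% of all 27025 genes with a window. Hspd1 and Hspe1 are counted separately, although their elements are the same bases of a shared stretch. The pair GAANNTTC was found in 13 members (23.2%), against 9.04% of all genes. The CCAAT box, which is part of the reticulum stress element, was found in 41.1% of members and in 41.1% of all genes. The full reticulum stress element was found in 3 members (5.36%), Dnajc3, Hsp90b1 and Hspa5, and in 0.137% of all genes. A match of letters is a description and does not show that a factor binds there.

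The stretches printed here belong to the genes whose values are described in the most detail. Capitals mark the motif. Hspe1 (chr1:55087998-55088147, plus strand) shows the stretch that it shares with Hspd1, which is transcribed the other way; the windows of these genes share 285 of 300 bases, and overlapping 3-unit elements begin 89 and 84 bases before the Hspe1 start.
Hspe1: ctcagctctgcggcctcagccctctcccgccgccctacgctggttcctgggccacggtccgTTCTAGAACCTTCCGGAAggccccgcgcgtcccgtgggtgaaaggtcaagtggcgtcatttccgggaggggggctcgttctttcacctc
Hsph1 (chr5:149636280-149636309, minus strand) has its 3-unit element 15 bases after an annotated start.
Hsph1: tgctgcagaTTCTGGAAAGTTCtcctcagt
Hspa1a (chr17:34972157-34972306, minus strand) and Hspa1b (chr17:34959239-34959388, minus strand) carry a pair GAANNTTC that begins 104 bases before each start. Of these 150 bases, 149 are the same in both genes.
Hspa1a: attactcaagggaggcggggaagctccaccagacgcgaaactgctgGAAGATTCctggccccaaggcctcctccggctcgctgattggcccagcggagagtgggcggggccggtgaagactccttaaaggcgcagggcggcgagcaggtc
Hspa1b: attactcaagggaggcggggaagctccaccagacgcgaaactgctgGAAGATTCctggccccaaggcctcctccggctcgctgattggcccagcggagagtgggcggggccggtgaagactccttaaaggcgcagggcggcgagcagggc
Hsp90b1 (chr10:86705520-86705669, minus strand) has 2 reticulum stress elements, and Hspa5 (chr2:34771940-34772089, plus strand) and Dnajc3 (chr14:118937782-118937931, plus strand) have 1 each in the stretch shown.
Hsp90b1: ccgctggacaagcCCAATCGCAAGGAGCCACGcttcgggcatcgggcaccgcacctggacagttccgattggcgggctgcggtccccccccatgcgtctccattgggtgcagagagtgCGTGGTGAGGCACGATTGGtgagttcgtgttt
Hspa5: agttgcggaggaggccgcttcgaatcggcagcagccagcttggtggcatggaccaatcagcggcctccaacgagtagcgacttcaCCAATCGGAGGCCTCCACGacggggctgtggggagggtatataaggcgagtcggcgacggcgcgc
Dnajc3: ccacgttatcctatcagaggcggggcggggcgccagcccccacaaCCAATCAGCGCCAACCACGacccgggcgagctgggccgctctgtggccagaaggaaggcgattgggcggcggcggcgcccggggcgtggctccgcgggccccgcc

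Levels are given throughout as deposited log2 expression values. The sort genes were checked against the gates. H2-Ab1, an MHC class II chain, ranged from 12.06 to 12.35 in CD24 DCs, although their label gives MHC II-, and from 11.79 to 12.06 in CD172a DCs and 6.41 to 6.70 in CDPs. Sirpa, which encodes CD172a, was at 9.34 and 9.36 in CD172a DCs and from 5.71 to 6.03 in CD24 DCs. Kit, which encodes CD117, was lowest in pre-CD4 cells (5.80 and 6.11) and from 9.59 to 9.80 in the spleen DCs, although CD117 is no part of their gate. Neutrophil transcripts differed between arrays of the same population: S100a8 was at 10.24 and 4.83 in CD172a DCs, at 4.61, 9.52 and 4.52 in CD24 DCs, at 6.86, 10.25 and 10.26 in CDPs, at 7.88 and 8.89 in pre-CD4 cells and at 8.28 and 11.95 in pre-CD8 cells. The summed linear level of all 6 neutrophil markers, as log2, ran from 13.03 to 13.58 in CDPs, 9.89 to 10.27 in pre-CD4 cells, 10.64 to 13.08 in pre-CD8 cells, 7.69 to 11.01 in CD172a DCs and 7.52 to 10.55 in CD24 DCs. In CDPs this sum rested mainly on Mpo (12.16 to 12.45) and Ctsg (11.31 to 11.59), with Elane at 9.30 to 10.52, rather than on S100a8. Among these markers, Ly6g ran only from 3.60 to 5.04 over all arrays. Of 7 macrophage markers the mean was higher in CD172a DCs (7.06 and 7.17) than in CD24 DCs (6.06 to 6.31) or CDPs (5.31 to 5.59). The interquartile range of an array, a measure of its spread over all probe sets, was 2.10 to 2.59 in the spleen arrays and 2.48 to 2.86 in the marrow arrays.

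A gene was called where limma's adjusted p, corrected over all 22180 genes, was under 0.05. In the comparisons made, 29 of the 68 members (42.6%, against 34.5% of all genes) were called at least once and 39 never. Differences are given on the log2 scale, first population minus second, and a difference of 1 is a factor of 2. The members moved in both directions, and their median difference stayed near 0, between -0.12 and 0.06 over the comparisons, where the median of all genes lay between -0.01 and 0.13. The share of members called was near that of all genes in most comparisons.

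In pre-CD8 cells against CDPs, 2 members were called higher (2.94%, against 2.29% of all genes) and 3 lower (4.41%, against 2.47%). In pre-CD4 cells against CDPs, 1 was higher (1.47%, against 2.32%) and 3 lower (4.41%, against 2.23%). Between pre-CD8 and pre-CD4 cells limma called 0 of 68 members, against 0.383% of all genes higher and 0.32% lower; at an unadjusted p under 0.05 there were 2. In CD24 DCs against pre-CD8 cells 2 members were higher and 2 lower (2.94% each, against 2.65% and 3.66%). In CD172a DCs against pre-CD4 cells 4 were higher (5.88%, against 4.7%) and 5 lower (7.35%, against 8.02%). The comparison of both spleen DCs with both pre-DCs took the mean of the spleen population means minus the mean of the pre-DC means. A call there can therefore rest mainly on a single spleen population. In this comparison 5 members were higher (7.35%, against 6.9%) and 7 lower (10.3%, against 10.8%). Each of these shares comes from a few genes.

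Between the mature populations, 7 members were called higher in CD24 DCs than in CD172a DCs (10.3%, against 3.21% of all genes) and 0 lower (2.37% of all genes). Of the 61 members not called there, 7 had an unadjusted p under 0.05. Of the comparisons made, the members' share called higher and that of all genes lay furthest apart here. Leaving out the first CD172a array left 0 of these calls and leaving out the second left 4, as given with the reticulum genes. The test of whether maturation differed between the lineages called 0 members (0.5% of all genes higher, 0.532% lower), with 10 at an unadjusted p under 0.05. Against the CDPs, in comparisons added after values had been seen, CD24 DCs had 7 members higher (10.3%, against 8.32%) and 11 lower (16.2%, against 12.9%). CD172a DCs had 6 higher (8.82%, against 8.68%) and 11 lower (16.2%, against 14.2%). All comparisons share arrays and 1 fit and are not independent of each other.

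**Figure D1:**
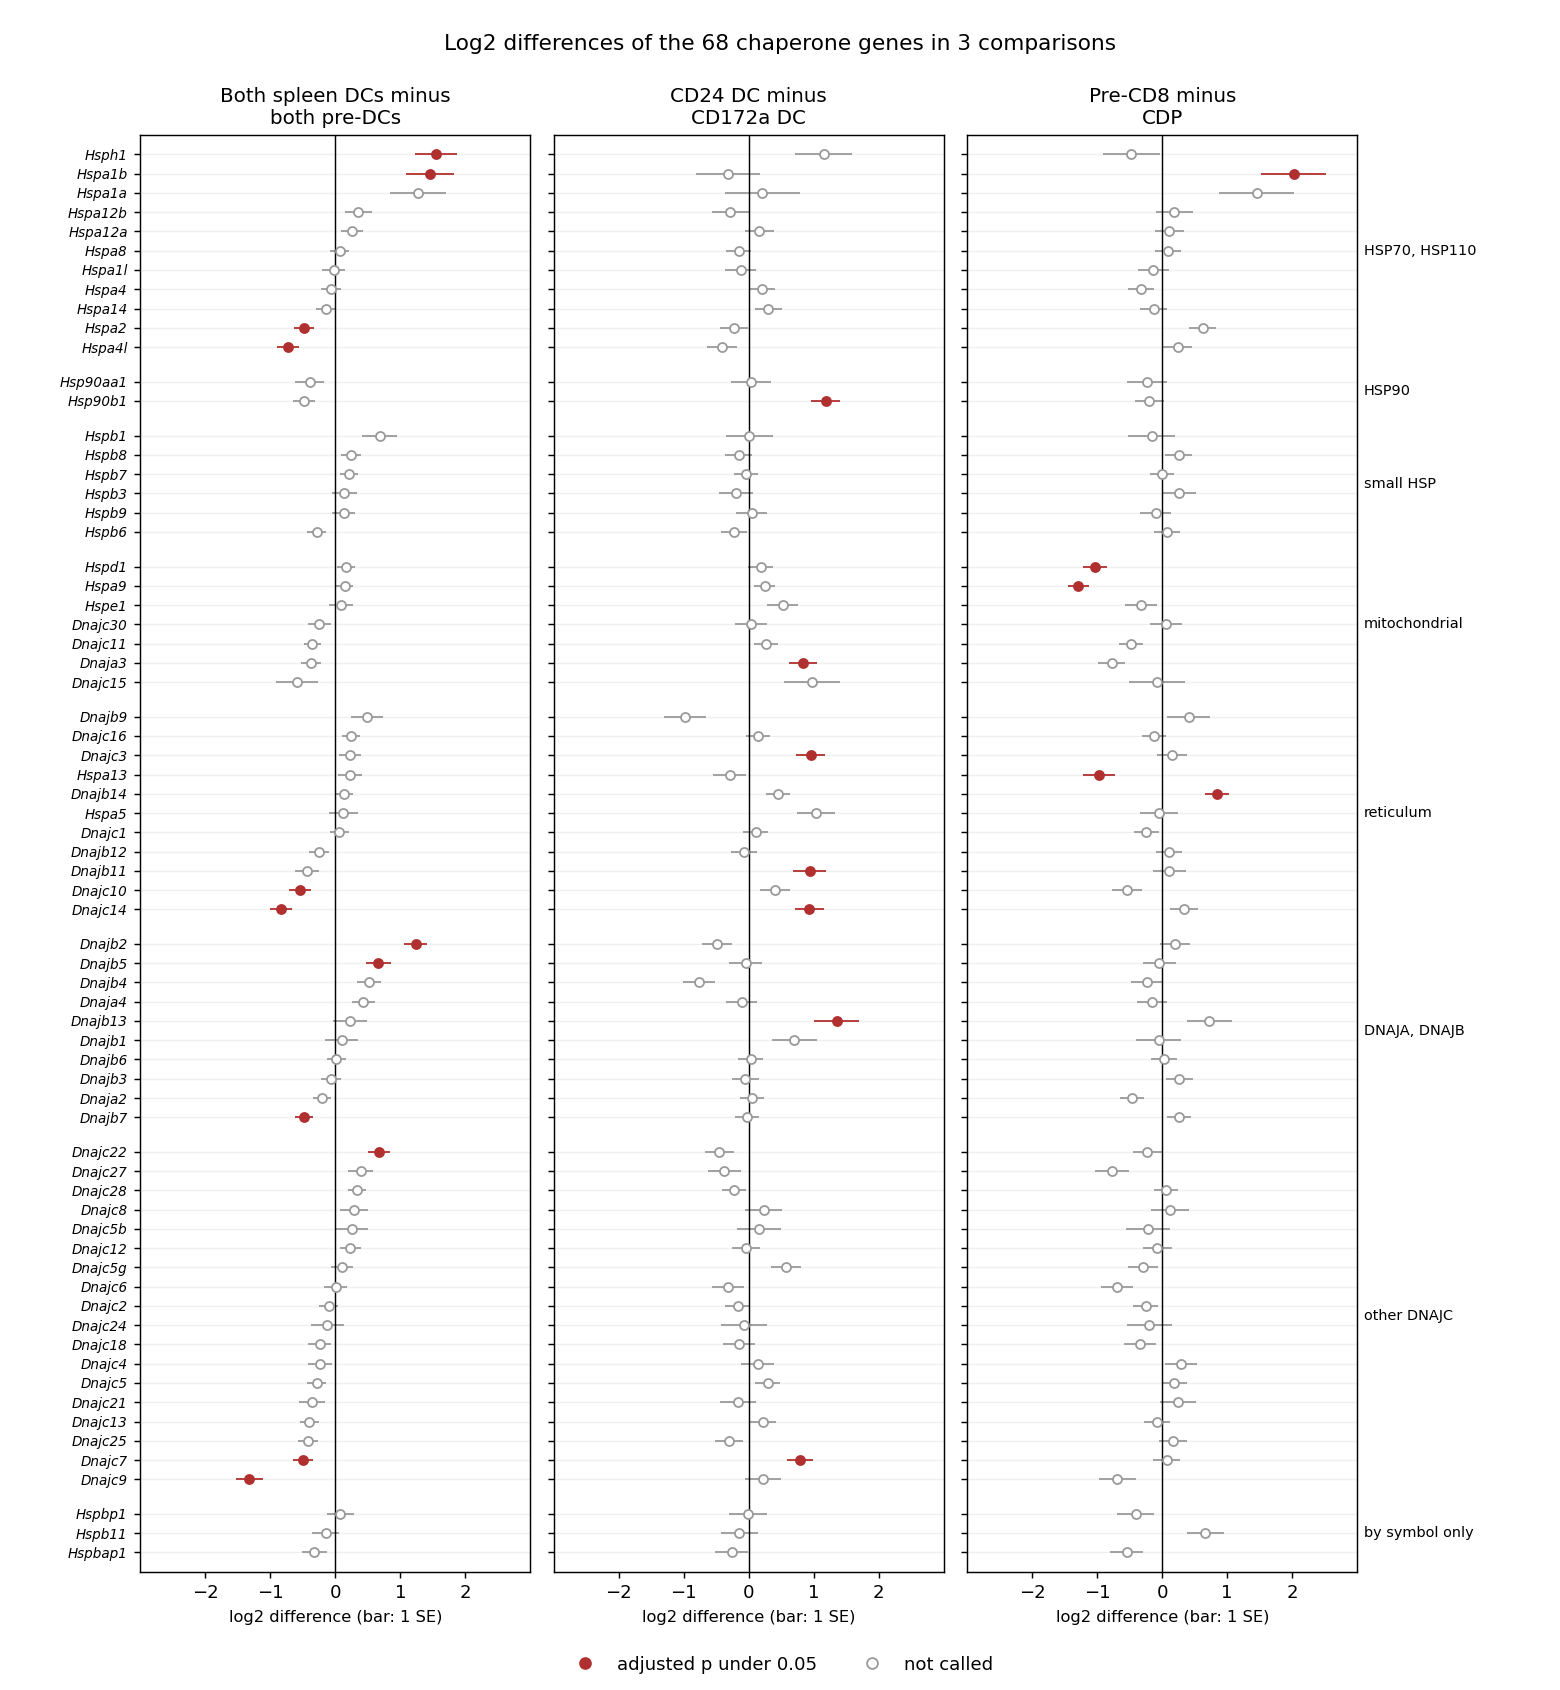
Log2 difference of each of the 68 genes with 1 SE in 3 comparisons, grouped by role and ordered within a role by the first comparison; filled red points passed limma's adjusted p under 0.05. Of 68 genes, 12 are filled in the comparison of both spleen DCs with both pre-DCs, 7 in CD24 against CD172a DCs, each to the right of 0, and 5 in pre-CD8 cells against CDPs.

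Hspa1a and Hspa1b, the stress-inducible HSP70 genes, were the members that varied most between populations. Hspa1b was at 8.46, 9.17 and 7.97 in CDPs, 9.35 and 10.92 in pre-CD4 cells, 9.80 and 11.31 in pre-CD8 cells, 11.85 and 12.08 in CD172a DCs, and 12.06, 11.26 and 11.60 in CD24 DCs. Every spleen array lay above every CDP array, and the pre-DC arrays lay between, with the second pre-CD8 array (11.31) reaching the lowest CD24 array (11.26). Hspa1b was 8.62-fold higher in CD24 DCs than in CDPs (log2 difference 3.11, SE 0.44, adjusted p = 0.000187) and 10.8-fold higher in CD172a DCs (3.43, SE 0.50, adjusted p = 0.000256). These calls held under every alternative run, with differences of 2.69 to 3.42 and 2.90 to 3.75. The marrow steps were less firm. Hspa1b was called in pre-CD8 cells against CDPs (2.02, SE 0.50, adjusted p = 0.0323), but not in pre-CD4 cells against CDPs (1.60, adjusted p = 0.0979). Without the second pre-CD8 array the former difference was 1.27 with an adjusted p of 0.353, and without the first or the third CDP array the adjusted p was 0.0937 or 0.125. Leaving out either CD172a array, which enters this comparison only through the shared spread, gave an adjusted p of 0.0514.

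Hspa1b was also called in both spleen DCs against both pre-DCs (1.46, SE 0.37, adjusted p = 0.0141), although the arrays overlapped, and in CD172a DCs against pre-CD4 cells (1.83, SE 0.54, adjusted p = 0.0419). Between array number 1 and array number 2 these differences were unlike. Number 1 gave 2.26 for CD24 DCs minus pre-CD8 cells and 2.50 for CD172a DCs minus pre-CD4 cells. Number 2 gave -0.04 and 1.15. Without the 5 arrays numbered 1 the spleen difference was 0.64 (adjusted p = 0.336), and without the first pre-CD4 or the first pre-CD8 array alone it was 1.06 (adjusted p = 0.0804) or 1.08 (adjusted p = 0.0793). In CD172a DCs against pre-CD4 cells the difference without the first pre-CD4 array was 1.04 (adjusted p = 0.421), and without either CD172a array it was 1.94 or 1.71 (adjusted p of 0.149 and 0.162). In each marrow population the array numbered 2 was higher than the array numbered 1 for Hspa1a, Hspa1b and S100a8 alike. The neutrophil marker Ly6g was lower on array 2 in CDPs (4.23 and 3.87) and pre-CD8 cells (4.54 and 4.48). It was higher there in pre-CD4 cells (4.42 and 5.04). The part of neutrophil RNA in these differences was not tested.

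Hspa1a was likewise lowest in CDPs and highest in the spleen DCs on average, with only the first CD24 array above the CD172a arrays. It was at 7.71, 9.26 and 7.95 in CDPs, 8.57 and 10.07 in pre-CD4 cells, 8.96 and 10.57 in pre-CD8 cells, 10.56 and 10.87 in CD172a DCs, and 11.75, 10.49 and 10.53 in CD24 DCs. Neither spleen population overlapped with the CDPs. Hspa1a was called in CD24 DCs (2.61, SE 0.52, adjusted p = 0.00243) and in CD172a DCs (2.41, SE 0.58, adjusted p = 0.00841) against CDPs. Both calls were lost with the interquartile range of the array as a covariate (adjusted p of 0.0637 and 0.194). In both spleen DCs against both pre-DCs Hspa1a missed the threshold (1.28, SE 0.43, adjusted p = 0.057). Leaving out the first CD172a array took the CD172a difference to 2.56 and its adjusted p to 0.05, and leaving out the second took them to 2.25 and 0.0693. The transcripts of Hspa1a and Hspa1b are near-identical, so how signal is divided between their probe sets is uncertain. A probe set annotated to both ran from 6.22 to 7.17 in CDPs, 7.08 to 8.90 in the pre-DCs, 8.21 to 9.75 in CD172a DCs and 9.39 to 10.66 in CD24 DCs.

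Hsph1, the inducible HSP110 that acts as a nucleotide exchange factor for HSP70, was lowest in pre-CD4 cells and highest in CD24 DCs. Its values were 7.15, 7.26 and 7.54 in CDPs, 6.04 and 6.12 in pre-CD4 cells, 6.55 and 7.13 in pre-CD8 cells, 6.72 and 8.14 in CD172a DCs, and 9.40, 7.77 and 8.57 in CD24 DCs. The CDPs lay above both pre-DCs, unlike the order for Hspa1b, and the CD172a arrays were 1.42 apart. Hsph1 was higher in both spleen DCs than in both pre-DCs (1.54, SE 0.32, adjusted p = 0.00472), a call that held under every alternative run although the first CD172a array lay within the pre-CD8 range. It was 3.34-fold higher in CD24 DCs than in pre-CD8 cells (1.74, SE 0.44, adjusted p = 0.0303), and 1.45 with an adjusted p of 0.321 without the first pre-CD8 array. Leaving out the second pre-CD8 array or CD24 array 1 or 3 also ended this call (1.33 to 2.03, adjusted p of 0.0577 to 0.082). In CD24 DCs against CDPs it was higher by 1.26 (SE 0.39, adjusted p = 0.0351), and by 0.85 with an adjusted p of 0.0989 without the first CD24 array. Without the third CD24 array or any 1 CDP array it was 1.18 to 1.37, with adjusted p of 0.0601 to 0.106.

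On the probe sets used, the constitutive cytosolic chaperones varied far less. Hspa8, the housekeeping HSP70, was at 12.28, 12.54 and 12.62 in CDPs, 12.44 and 12.65 in pre-CD4 cells, 12.43 and 12.71 in pre-CD8 cells, 12.63 and 12.77 in CD172a DCs, and 12.46, 12.70 and 12.48 in CD24 DCs. Its population means spanned 0.22, and all comparisons overlapped except CD172a DCs against CDPs, where the difference was 0.22 (SE 0.19) and not called. The highest value on any array was 12.85 to 13.09, so this probe set lay near the top of the scale. Whether that narrowed its span was not tested. Of the 3 other probe sets of Hspa8, 2 had lower values in CD172a DCs (9.21 and 9.76, and 10.50 and 10.85) than in CD24 DCs (9.89 to 10.38, and 11.32 to 11.57). In these 2 sets CD172a DCs also lay below CDPs (10.15 to 10.51, and 11.32 to 11.65), opposite to the set used. The remaining set, at 12.28 to 12.77, ran as the set used, so the probe sets of this gene disagree. Hspa4, a constitutive HSP110, was at 9.52, 9.73 and 9.76 in CDPs, 9.06 and 9.29 in pre-CD4 cells, 9.22 and 9.46 in pre-CD8 cells, 8.93 and 9.25 in CD172a DCs, and 9.11, 9.54 and 9.23 in CD24 DCs. CDPs were highest, and no comparison was called, the nearest being CD172a DCs against CDPs (-0.58, SE 0.21, adjusted p = 0.0598).

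Among the other cytosolic HSP70 and HSP110 genes, Hspa4l and Hspa2 were called lower. Hspa4l, another HSP110, was at 7.82 and 7.93 in pre-CD4 cells, 7.41 and 7.47 in pre-CD8 cells, 6.87 and 7.39 in CD172a DCs, and 6.40, 6.89 and 6.88 in CD24 DCs. No spleen array reached a pre-DC array, and the difference was -0.73 (SE 0.17, adjusted p = 0.00891), and -0.60 with an adjusted p of 0.052 without the first CD172a array. Hspa2, an HSP70 best known from the testis, was highest in pre-CD8 cells (6.85 and 6.60) and at 5.88, 5.99 and 5.42 in CD24 DCs, a difference of -0.96 (SE 0.21, adjusted p = 0.0128) that was -0.83 (adjusted p = 0.191) without the first pre-CD8 array. Its call in both spleen DCs against both pre-DCs (-0.48, adjusted p = 0.0496) was lost under 15 alternatives. The remaining 4 genes of the group, Hspa1l, Hspa12a, Hspa12b and Hspa14, were called in no comparison, where the members' median SE was 0.23 in pre-CD8 cells against CDPs.

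**Figure D2:**
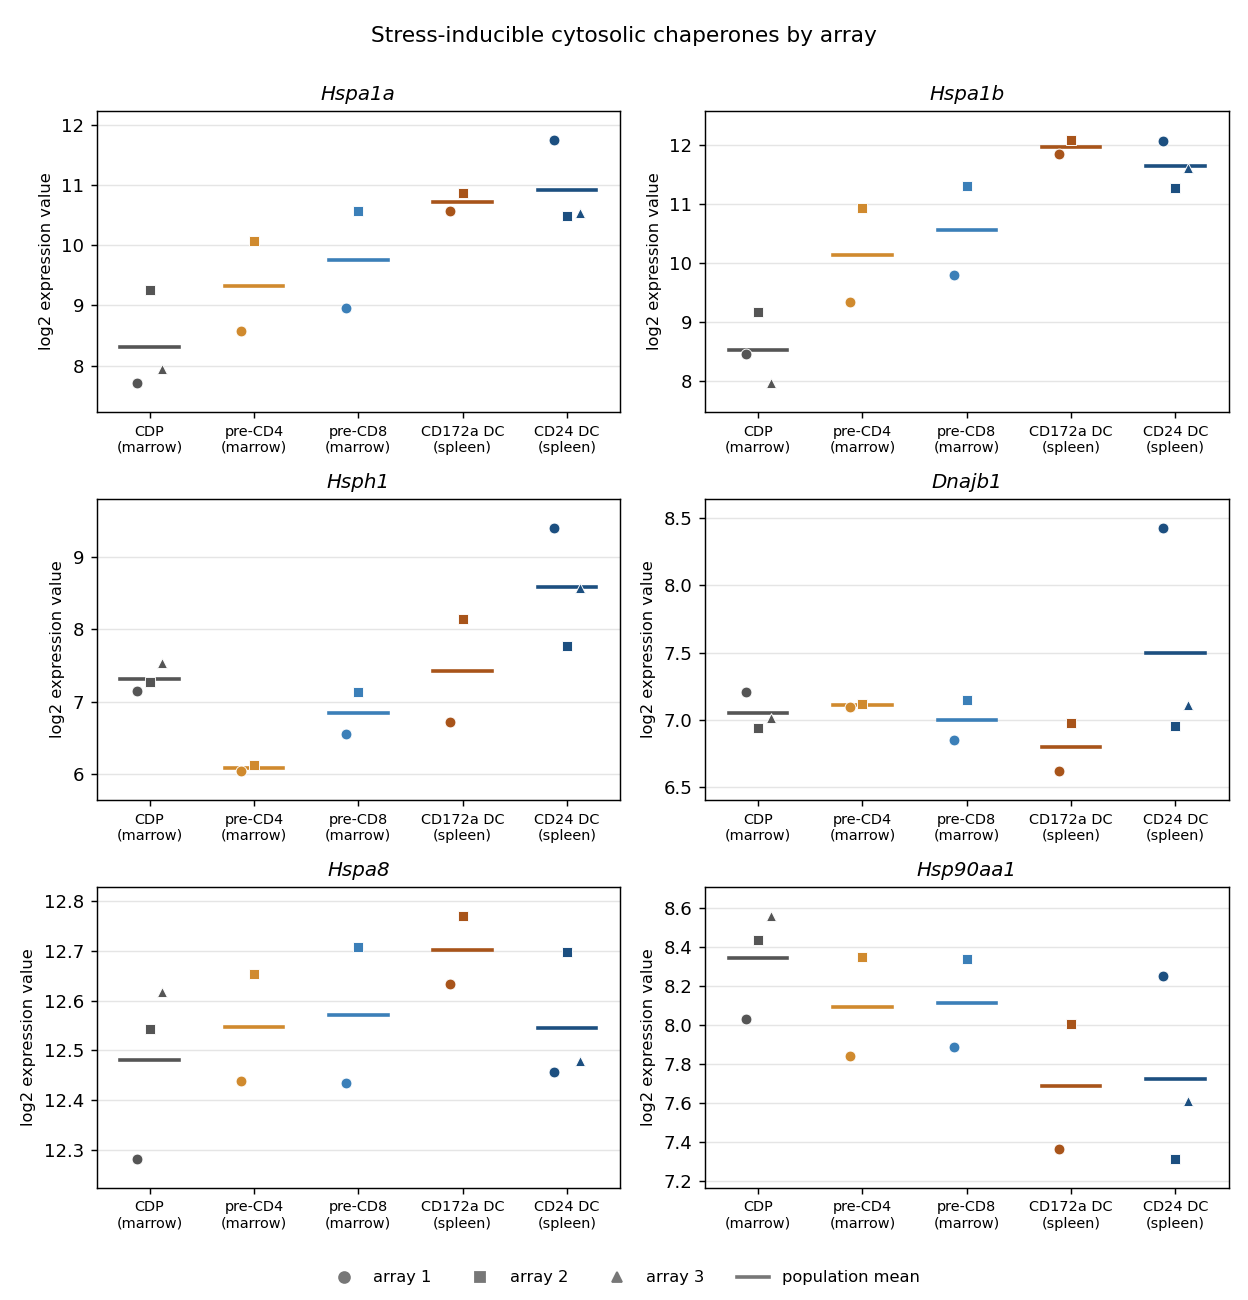
Log2 expression value of 6 cytosolic chaperones on each array, by population; symbols give the array number and bars the population mean, and each panel has its own axis. Hspa1a and Hspa1b lie lowest in CDPs and highest in the spleen DCs, while Hspa8 lies between 12.28 and 12.77 on every array and Dnajb1 has 1 high array, CD24 array 1 at 8.43.

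Dnajb1, the J-domain partner of inducible HSP70, was not called in any comparison. It was at 7.21, 6.94 and 7.02 in CDPs, 7.10 and 7.12 in pre-CD4 cells, 6.85 and 7.15 in pre-CD8 cells, 6.62 and 6.98 in CD172a DCs, and 8.43, 6.96 and 7.12 in CD24 DCs. Only the first CD24 array stood apart, and the same array had the highest Hspa1a (11.75) and Hsph1 (9.40) values. Hsp90aa1, the inducible cytosolic HSP90, had its highest mean in CDPs, with no call in any comparison. Its values were 8.03, 8.44 and 8.56 in CDPs, 7.84 and 8.35 in pre-CD4 cells, 7.89 and 8.34 in pre-CD8 cells, 7.37 and 8.01 in CD172a DCs, and 8.25, 7.31 and 7.61 in CD24 DCs. The first CD24 array was thus the highest of the spleen arrays here too and lay within the CDP range. Against CDPs the difference was -0.62 (SE 0.27, adjusted p = 0.131) in CD24 DCs and -0.66 (SE 0.31, adjusted p = 0.144) in CD172a DCs. Against CDPs, the inducible members thus had differences in CD24 and CD172a DCs of 2.61 and 2.41 for Hspa1a, 3.11 and 3.43 for Hspa1b, 1.26 and 0.11 for Hsph1, and -0.62 and -0.66 for Hsp90aa1, of which both values of the HSP70 genes and the first value of Hsph1 were called.

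The mitochondrial HSP70 and HSP60 genes were higher in CDPs than in every later population. Hspa9, the HSP70 of the mitochondrial matrix that pulls proteins in during import, was at 10.02, 9.97 and 9.94 in CDPs. It was at 8.59 and 8.60 in pre-CD4 cells, 8.67 and 8.71 in pre-CD8 cells, 8.63 and 8.69 in CD172a DCs, and 8.93, 8.92 and 8.87 in CD24 DCs. The arrays of a population differed by at most 0.08, and no later array came within 1 unit of a CDP array. The difference from CDPs was -1.29 (SE 0.17, adjusted p = 0.000443) in pre-CD8 cells, -1.38 (SE 0.17, adjusted p = 0.000367) in pre-CD4 cells, -1.07 (SE 0.15, adjusted p = 0.000156) in CD24 DCs and -1.32 (SE 0.17, adjusted p = 9.86e-05) in CD172a DCs. All of these calls held under every alternative run. Between the pre-DCs and the spleen DCs Hspa9 was not called (0.14, SE 0.12, adjusted p = 0.457).

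Hspd1, the HSP60 chaperonin that folds matrix proteins in a closed chamber, had a similar order. It was at 10.38, 10.39 and 10.60 in CDPs, 9.03 and 9.08 in pre-CD4 cells, 9.35 and 9.49 in pre-CD8 cells, 9.18 and 9.43 in CD172a DCs, and 9.66, 9.33 and 9.48 in CD24 DCs. No later array overlapped with a CDP array. The difference from CDPs was -1.04 (SE 0.19, adjusted p = 0.00522) in pre-CD8 cells and -1.40 (SE 0.19, adjusted p = 0.00082) in pre-CD4 cells. In CD24 DCs it was -0.97 (SE 0.17, adjusted p = 0.000957) and in CD172a DCs -1.15 (SE 0.19, adjusted p = 0.000651). The pre-CD8 call was lost without the first pre-CD8 array (-0.97, adjusted p = 0.0658), and the other 3 held under every alternative run.

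Hspe1, the HSP10 lid of the same chaperonin, shares its promoter stretch with Hspd1 but was not called in any comparison. Its values were 10.23, 9.94 and 10.04 in CDPs, 9.63 and 9.29 in pre-CD4 cells, 9.96 and 9.52 in pre-CD8 cells, 9.21 and 9.64 in CD172a DCs, and 10.30, 9.89 and 9.66 in CD24 DCs. The CDP and CD24 arrays overlapped. The difference from CDPs was -0.33 (SE 0.24) in pre-CD8 cells, -0.61 (SE 0.24) in pre-CD4 cells, -0.12 (SE 0.22) in CD24 DCs and -0.64 (SE 0.24) in CD172a DCs, with adjusted p between 0.076 and 0.722. Whether Hspd1 and Hspe1 changed unequally was not tested.

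Dnaja3, the matrix J-domain partner of Hspa9, was lowest in CD172a DCs. It was at 7.70, 7.70 and 7.59 in CDPs, 6.74 and 6.43 in pre-CD4 cells, 6.95 and 6.82 in pre-CD8 cells, 6.01 and 5.88 in CD172a DCs, and 7.10, 6.49 and 6.75 in CD24 DCs. CDP arrays lay above all others and CD172a arrays below all others. In CD172a DCs it was 3.29-fold lower than in CDPs (-1.72, SE 0.21, adjusted p = 7.31e-05). The call held under every alternative run, but the difference was -0.91 (adjusted p = 0.0083) with the mean of its 3 probe sets. It was also called in pre-CD4 cells (-1.08, SE 0.21, adjusted p = 0.00876) and CD24 DCs (-0.88, SE 0.19, adjusted p = 0.00393) against CDPs, and higher in CD24 than in CD172a DCs (0.83, SE 0.21, adjusted p = 0.0325). The call between the spleen populations was lost without either CD172a array (0.90 and 0.77, adjusted p of 0.145 and 0.183), the first CD24 array or CDP array 2 or 3, and the pre-CD4 call without the second pre-CD4 array (-0.92, adjusted p = 0.148). In pre-CD8 cells it lay just outside the threshold (-0.78, SE 0.21, adjusted p = 0.0526). Its other 2 probe sets gave values of 4.11 to 5.70 and 4.08 to 4.77, and the mean of all 3 ended the pre-CD4 call (-0.41, adjusted p = 0.431), the CD24 call against CDPs (-0.46, adjusted p = 0.112) and the call between the spleen populations (0.45, adjusted p = 0.358). Of the 7 mitochondrial members, 2 were lower in pre-CD8 cells (28.6%, against 2.47% of all genes), 3 in pre-CD4 cells (42.9%, against 2.23%) and 4 in each spleen population (57.1%, against 12.9% in CD24 DCs and 14.2% in CD172a DCs) against CDPs, where the group's median difference was -0.48, -0.61, -0.72 in CD24 DCs and -1.15 in CD172a DCs. The fourth was Dnajc11, a protein of the outer membrane, at 7.21 to 7.36 in CDPs and 6.30 and 6.33 in CD172a DCs (-0.99, SE 0.18, adjusted p = 0.0015). Fewer cells of a kind and less RNA per cell cannot be told apart in these sorted bulk samples.

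**Figure D3:**
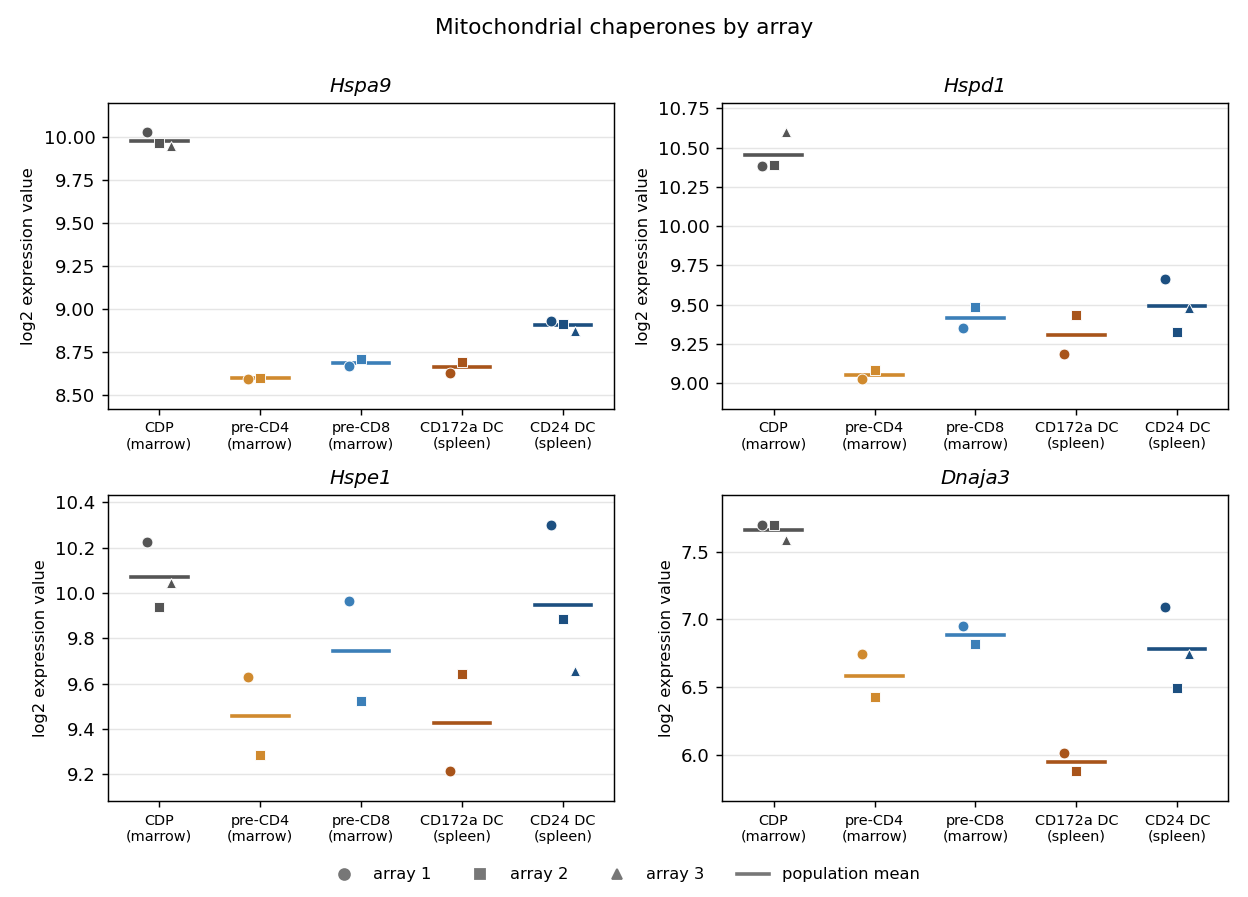
Log2 expression value of 4 mitochondrial chaperones on each array, by population; symbols give the array number and bars the population mean, and each panel has its own axis. CDP arrays of Hspa9 (9.94 to 10.02), Hspd1 (10.38 to 10.60) and Dnaja3 (7.59 to 7.70) lie above all other arrays, and those of Hspe1 overlap with CD24 DCs.

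In the endoplasmic reticulum, several chaperones were higher in CD24 than in CD172a DCs. Hsp90b1, the reticulum HSP90 (GRP94), was at 11.26, 11.12 and 10.88 in CD24 DCs and at 9.68 and 10.12 in CD172a DCs. In the marrow it was at 10.93, 11.23 and 11.33 in CDPs, 11.01 and 10.98 in pre-CD4 cells, and 10.75 and 11.18 in pre-CD8 cells. The CD172a arrays lay below all others, while CD24 DCs lay within the marrow range. Hsp90b1 was 2.27-fold higher in CD24 than in CD172a DCs (1.18, SE 0.22, adjusted p = 0.00603), and it was lower in CD172a DCs than in pre-CD4 cells (-1.09, SE 0.24, adjusted p = 0.00935) and CDPs (-1.26, SE 0.22, adjusted p = 0.0011). Its maturation difference between lineages was 1.21 (SE 0.33), with an adjusted p of 0.123. Without the first CD172a array the difference between the spleen populations was 0.96 with an adjusted p of 0.115, and the difference from pre-CD4 cells -0.87 with an adjusted p of 0.112. The latter was -1.07 with an adjusted p of 0.0731 without the first pre-CD4 array.

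Hspa5, the reticulum HSP70 (BiP) which holds the sensors of the unfolded protein response inactive, was at 10.66, 9.74 and 10.33 in CD24 DCs and at 8.84 and 9.59 in CD172a DCs. It was at 9.76, 10.02 and 9.74 in CDPs, 9.55 and 9.30 in pre-CD4 cells, and 9.52 and 10.05 in pre-CD8 cells. The spleen populations did not overlap, and the difference of 1.03 (SE 0.29) had an adjusted p of 0.0603. It passed the threshold under 3 of 20 alternatives, among them testing only genes at or above the 40th percentile of mean level (adjusted p = 0.0377), and was 0.66 with an adjusted p of 0.579 without the first CD172a array. No other comparison of Hspa5 was called.

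Dnajc3, a J-domain partner of Hspa5 that also restrains the stress kinase PERK, was at 9.77, 10.49 and 9.94 in CD24 DCs and at 9.16 and 9.08 in CD172a DCs. In the marrow it ran from 9.13 to 9.45 in CDPs, 9.28 to 9.29 in pre-CD4 cells and 9.31 to 9.59 in pre-CD8 cells. The CD24 arrays lay above all others. Dnajc3 was higher than in CD172a DCs by 0.95 (SE 0.23, adjusted p = 0.0249) and than in CDPs by 0.77 (SE 0.20, adjusted p = 0.0147). Without the second CD24 array these were 0.74 (adjusted p = 0.0746) and 0.56 (adjusted p = 0.0651). Without either CD172a array the difference between spleen populations was 0.99 or 0.91, with adjusted p of 0.141 and 0.142. The 3 members with a reticulum stress element in their window, Dnajc3, Hspa5 and Hsp90b1, had differences of 0.95, 1.03 and 1.18 between the spleen populations, of which the first and the last were called.

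Dnajb11, a lumenal J-domain protein that binds clients with Hspa5, was at 8.52, 8.55 and 8.10 in CD24 DCs and 7.01 and 7.89 in CD172a DCs (0.94, SE 0.26, adjusted p = 0.0493). Dnajc14, a membrane J-domain protein, was at 7.72, 7.41 and 7.57 in CD24 DCs and 6.30 and 6.97 in CD172a DCs (0.93, SE 0.22, adjusted p = 0.0237). Neither gene has a reticulum stress element in a window, and their differences are near those of the genes that have it. In both genes the first CD172a array was the lowest of the 12. Dnajb11 was 0.50 higher with an adjusted p of 0.588 without that array, and Dnajc14 0.60 higher with an adjusted p of 0.347. None of the 7 members called between CD24 and CD172a DCs was called without it, but Dnajc3 (0.99), Dnaja3 (0.90), Dnajb13 (1.24) and Dnajc7 (0.71) kept differences near those with all arrays. These 4 also lost their calls without the second CD172a array (0.91, 0.77, 1.46 and 0.87), while Hsp90b1 (1.40), Dnajb11 (1.38) and Dnajc14 (1.27) were still called without it. The first array also had the high S100a8 value of 10.24, against 4.83 on the other CD172a array. Of the other neutrophil markers, S100a9 was at 9.33 and 5.22 on these arrays, but Ly6g was at 3.81 and 4.11. The part of neutrophil RNA in the result was not tested. Dnajc14 was also lower in CD172a DCs than in pre-CD4 cells (-1.27, SE 0.24, adjusted p = 0.00328), where it was at 8.05 and 7.77, and in both spleen DCs than in both pre-DCs (-0.84, SE 0.16, adjusted p = 0.00286). Both of these calls were lost with the interquartile range of the array as a covariate.

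Other reticulum members moved differently. Dnajb9, which aids the disposal of misfolded proteins and restrains the stress sensor IRE1, was highest in CD172a DCs, at 9.96 and 9.53, against 8.48, 9.30 and 8.50 in CD24 DCs. It was at 8.13, 8.63 and 8.47 in CDPs, 8.19 and 9.23 in pre-CD4 cells and 8.66 and 8.97 in pre-CD8 cells. Dnajb9 was called in CD172a DCs against CDPs (1.33, SE 0.33, adjusted p = 0.00949), but without the first CD172a array the difference was 1.12 with an adjusted p of 0.119, and its difference between CD24 and CD172a DCs was -0.98 (SE 0.33, adjusted p = 0.115). Dnajc10, a disulfide reductase with a J domain, was at 9.03, 9.20 and 9.26 in CDPs and at 8.16 and 7.70 in CD172a DCs (-1.24, SE 0.23, adjusted p = 0.00138), a call that held under every alternative run. In CD24 DCs, at 7.94, 8.52 and 8.53, it was lower than in CDPs by a difference of -0.83 (SE 0.20, adjusted p = 0.00932). Hspa13, a short HSP70 of the microsomes, was at 7.31, 6.62 and 7.02 in CDPs and 6.10 and 5.93 in pre-CD8 cells (-0.97, SE 0.25, adjusted p = 0.0426), a call lost under 11 alternatives. Of the 11 reticulum members, 3 were called higher in CD24 than in CD172a DCs (27.3%, against 3.21% of all genes) with a group median of 0.40, against -0.01 for all genes. These calls were lost under 13 alternatives for Dnajb11, 6 for Dnajc3 and 4 for Dnajc14. Hsp90b1 is counted with HSP90.

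**Figure D4:**
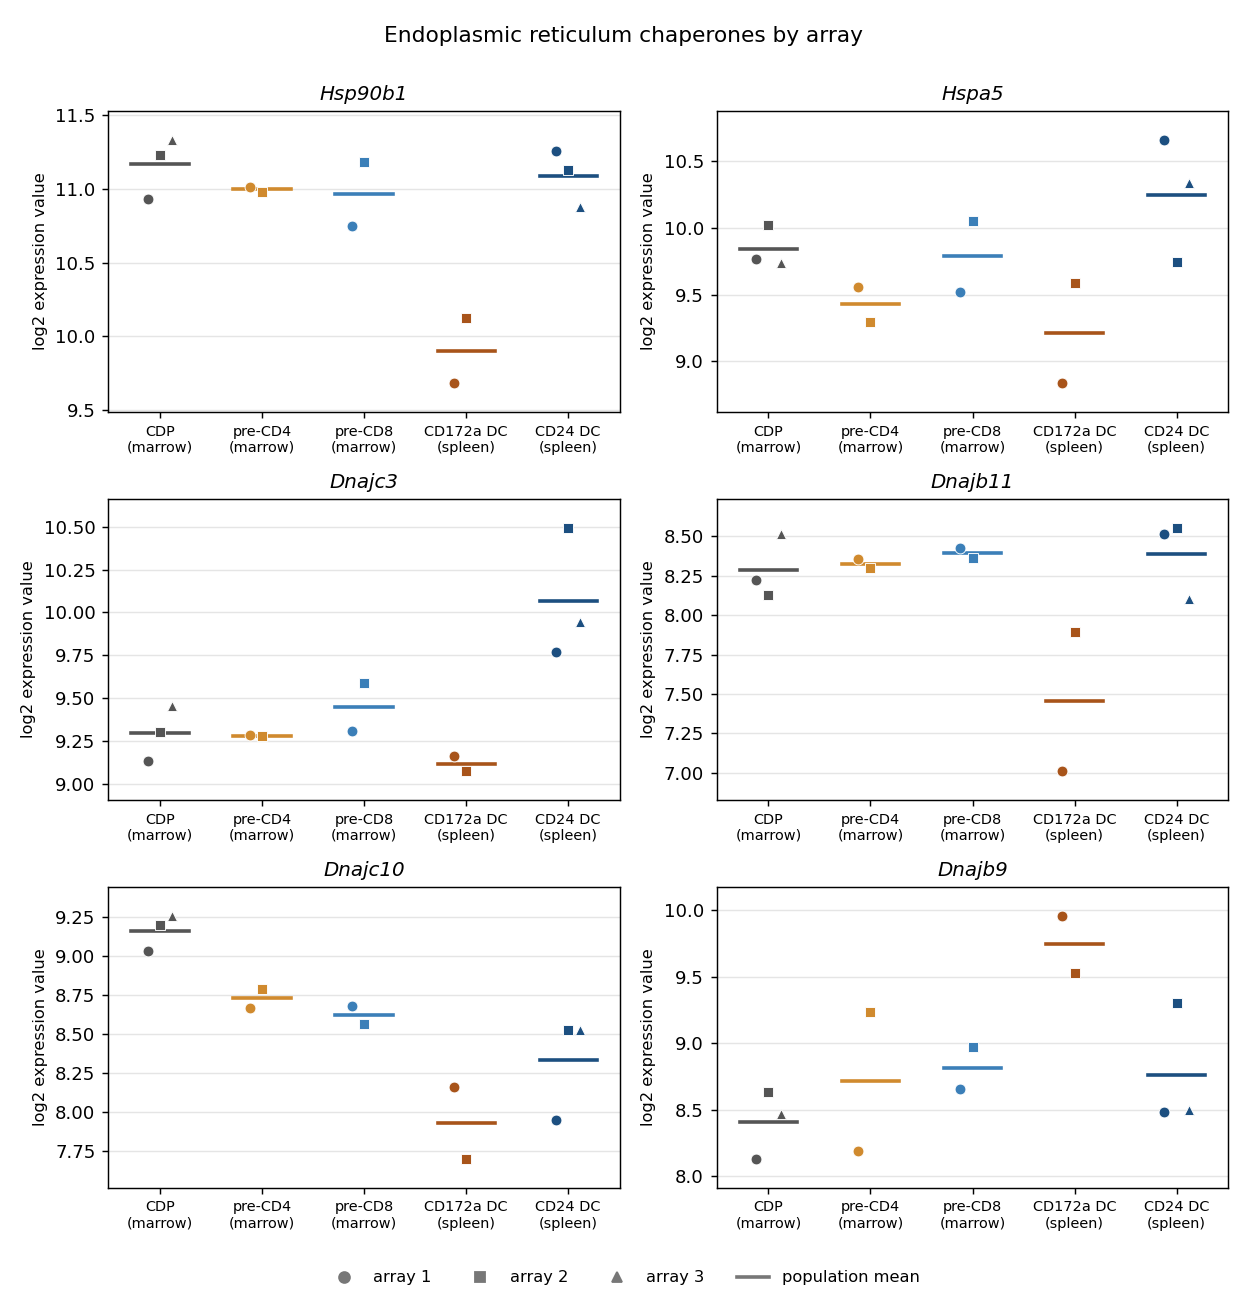
Log2 expression value of 6 reticulum chaperones on each array, by population; symbols give the array number and bars the population mean, and each panel has its own axis. Both CD172a arrays of Hsp90b1 (9.68 and 10.12) lie below all others, the first CD172a array is lowest for Hspa5 and Dnajb11, and Dnajb9 is highest in CD172a DCs.

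Dnajb14, a J-domain protein of the reticulum membrane, was the only member called higher in all 4 later populations against CDPs. It was at 6.17, 6.19 and 6.25 in CDPs, 7.32 and 7.39 in pre-CD4 cells, 7.14 and 6.96 in pre-CD8 cells, 7.0 and 7.23 in CD172a DCs, and 7.80, 7.41 and 7.48 in CD24 DCs. No later array overlapped with a CDP array. The difference was 1.36 (SE 0.17, adjusted p = 6.32e-05) in CD24 DCs, 0.91 (SE 0.19, adjusted p = 0.00354) in CD172a DCs, 1.15 (SE 0.19, adjusted p = 0.00327) in pre-CD4 cells and 0.84 (SE 0.19, adjusted p = 0.0204) in pre-CD8 cells. The spleen calls held under every alternative run. The pre-CD8 call was lost when any 1 CDP or pre-CD8 array was left out (adjusted p up to 0.178), with differences of 0.75 to 0.94. In pre-CD4 cells the adjusted p was 0.0554 without the second pre-CD4 array.

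Among the J-domain proteins of cytosol and nucleus, Dnajc9 and Dnajb2 differed most clearly between marrow and spleen. Dnajc9, which also binds histones H3 and H4, was at 9.41, 9.62 and 9.58 in CDPs, 8.94 and 9.10 in pre-CD4 cells, 8.94 and 8.76 in pre-CD8 cells, 7.22 and 7.78 in CD172a DCs, and 8.06, 8.01 and 7.09 in CD24 DCs. No spleen array came near a marrow array. It was 2.50-fold lower in both spleen DCs than in both pre-DCs (-1.32, SE 0.21, adjusted p = 0.000555). Against CDPs it was 3.53-fold lower in CD24 DCs (-1.82, SE 0.25, adjusted p = 0.000139) and 4.10-fold lower in CD172a DCs (-2.04, SE 0.28, adjusted p = 0.000174), and these 3 calls held under every alternative run. It was also called in CD172a DCs against pre-CD4 cells (-1.52, SE 0.31, adjusted p = 0.00502) and in CD24 DCs against pre-CD8 cells (-1.13, SE 0.28, adjusted p = 0.0279), the former -1.24 with an adjusted p of 0.071 without the first CD172a array. The latter was -1.04 without the first pre-CD8 array (adjusted p = 0.249), -1.22 without the second (adjusted p = 0.0832) and -0.81 without the third CD24 array (adjusted p = 0.0526).

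Dnajb2, a J-domain protein with ubiquitin-binding motifs that passes clients to the proteasome, ran the other way. It was at 3.62, 4.14 and 4.09 in CDPs, 3.98 and 4.08 in pre-CD4 cells, 3.83 and 4.47 in pre-CD8 cells, 5.46 and 5.67 in CD172a DCs, and 5.0, 5.17 and 5.07 in CD24 DCs. Every spleen array lay above every marrow array. The difference between both spleen DCs and both pre-DCs was 1.23 (SE 0.17, adjusted p = 0.000212), and that between CD172a DCs and pre-CD4 cells 1.54 (SE 0.25, adjusted p = 0.00126). Against CDPs it was 1.13 (SE 0.21, adjusted p = 0.00134) in CD24 DCs and 1.61 (SE 0.23, adjusted p = 0.000235) in CD172a DCs. Of these, all but the CD24 difference from CDPs held under every alternative run. The difference of CD24 DCs from pre-CD8 cells was 0.93 (SE 0.23, adjusted p = 0.028). No detection calls were used, so whether a value near 4 is a detected transcript is not known. Without the first pre-CD8 array the last difference was 0.61, with an adjusted p of 0.445.

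Dnajb13, a J-domain protein best known from the axonemes of sperm and cilia, was highest in CD24 DCs. Its values were 5.52, 6.60 and 7.02 in CD24 DCs, 4.92 and 5.14 in CD172a DCs, 4.93, 4.91 and 4.96 in CDPs, 5.34 and 5.26 in pre-CD4 cells, and 6.04 and 5.28 in pre-CD8 cells. The first CD24 array lay below the first pre-CD8 array. Dnajb13 was called in CD24 against CD172a DCs (1.35, SE 0.35, adjusted p = 0.0392) and against CDPs (1.45, SE 0.31, adjusted p = 0.00457). Without the first CD172a array the former difference was 1.24 with an adjusted p of 0.292. Dnajc7, which links HSP70 and HSP90 through its tetratricopeptide repeats, was at 7.63 and 7.80 in CD172a DCs and from 8.17 to 8.77 on all other arrays. It was lower in CD172a DCs than in pre-CD4 cells (-0.90, SE 0.22, adjusted p = 0.0166) and CDPs (-0.82, SE 0.20, adjusted p = 0.00992), and higher in CD24 than in CD172a DCs (0.79, SE 0.20, adjusted p = 0.0358). The last of these was lost under 13 alternatives.

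The other called J-domain genes had smaller differences. In both spleen DCs against both pre-DCs these were Dnajc22 (0.67, SE 0.16, adjusted p = 0.012), Dnajb5, a relative of Dnajb1 (0.66, SE 0.19, adjusted p = 0.0267), Dnajc10 (-0.55, SE 0.17, adjusted p = 0.0375), Dnajc7 (-0.50, SE 0.15, adjusted p = 0.0356) and Dnajb7 (-0.49, SE 0.14, adjusted p = 0.0264). Each was lost without 1 or more single arrays, Dnajc22 without the first CD172a array (0.61, adjusted p = 0.0577), Dnajb5 and Dnajb7 among others without the second (0.55 and -0.41, adjusted p of 0.103 and 0.0959), and the last-named pair of Dnajc genes without either pre-CD4 array. In CD172a DCs against pre-CD4 cells they were Dnajb4, another relative of Dnajb1 (5.61 and 6.12 against 4.70 and 5.02; 1.00, SE 0.27, adjusted p = 0.0255), Dnajc22 (0.89, SE 0.24, adjusted p = 0.0275) and Dnajc10 (-0.80, SE 0.25, adjusted p = 0.0497). These calls were lost under 6, 7 and 13 alternatives, among them leaving out either pre-CD4 array (Dnajb4 0.85 and 1.16, Dnajc22 0.93 and 0.86, Dnajc10 -0.86 and -0.74, with adjusted p of 0.052 to 0.212). Over all arrays Dnajb7 was at 3.07 to 3.85 and Dnajc22 at 3.93 to 4.99, so whether either is a detected transcript is not known. Dnajc6, auxilin, which strips clathrin from vesicles with Hspa8, was at 5.93, 5.46 and 5.41 in CDPs and at 4.76, 4.56 and 4.87 in CD24 DCs (-0.87, SE 0.22, adjusted p = 0.011), and -0.71 with an adjusted p of 0.0582 without the first CDP array. Dnajb6, named after its values were seen, whose window holds a 3-unit heat-shock element, had the narrowest range of all 68 members, with population means within 0.08.

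**Figure D5:**
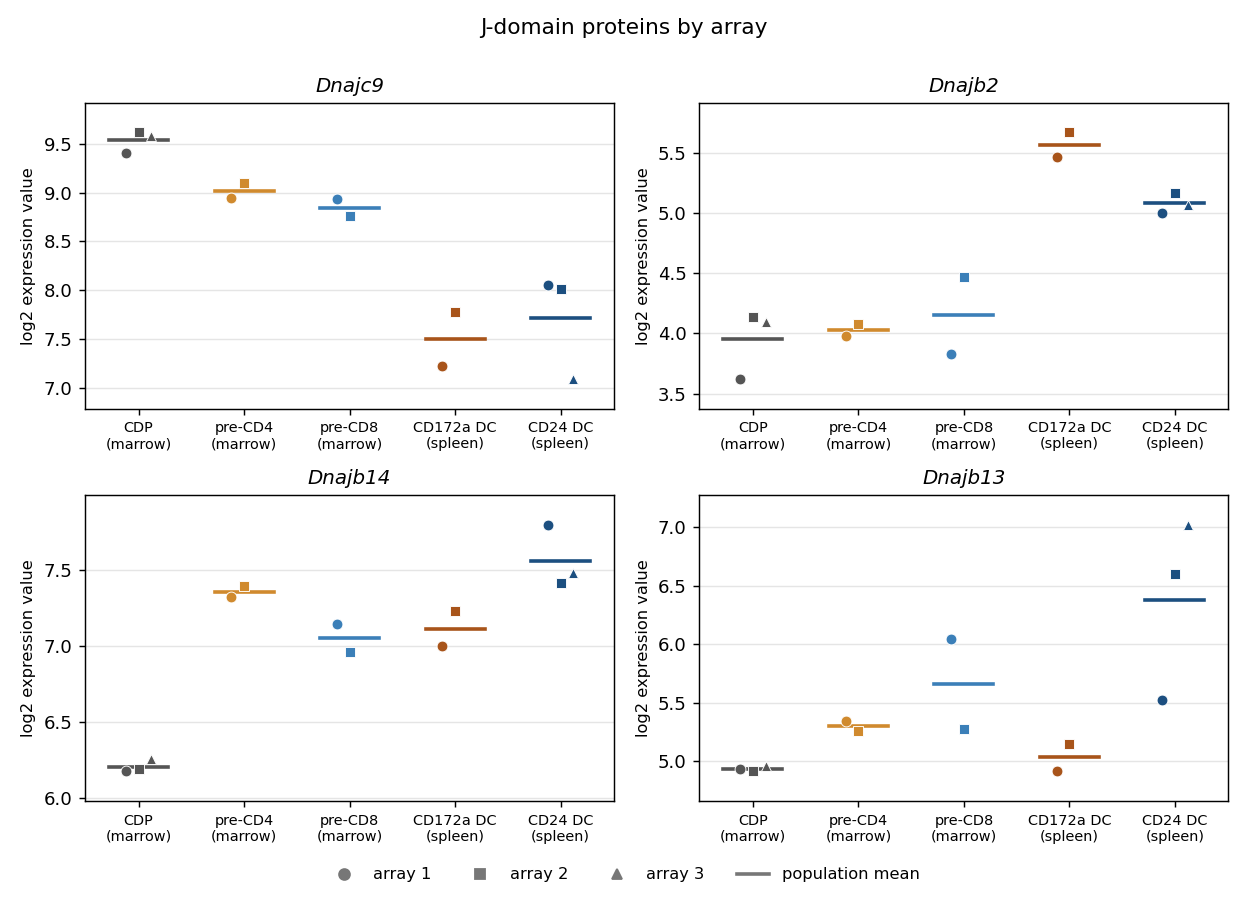
Log2 expression value of 4 J-domain genes on each array, by population; symbols give the array number and bars the population mean, and each panel has its own axis. Dnajc9 is below 8.1 on every spleen array and above 8.7 on every marrow array, Dnajb2 is higher on every spleen array, Dnajb14 is lowest in CDPs (6.17 to 6.25), and Dnajb13 is spread from 5.52 to 7.02 in CD24 DCs.

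Of the 6 small heat-shock proteins, limma called 0 in every comparison; at an unadjusted p under 0.05 there was 1 in pre-CD4 cells against CDPs, 1 in both spleen DCs against both pre-DCs and 0 elsewhere. Hspb1 (HSP25) was at 4.61, 5.63 and 5.36 in CDPs, 4.65 and 5.45 in pre-CD4 cells, 4.53 and 5.55 in pre-CD8 cells, 5.83 and 5.61 in CD172a DCs, and 5.50, 5.57 and 6.12 in CD24 DCs. On the probe set used, the first array of each marrow population was lowest, near 4.6, and the second was at 5.45 to 5.63. The spleen arrays ran from 5.50 to 6.12, and of the second marrow arrays only that of pre-CD4 cells (5.45) lay below them. The Hspb1 difference between both spleen DCs and both pre-DCs was 0.68 (SE 0.27, adjusted p = 0.101). On the other probe set of Hspb1 the first array was instead the highest in each marrow population. It was at 4.51, 3.48 and 4.32 in CDPs, 4.42 and 4.04 in pre-CD4 cells, and 4.92 and 4.39 in pre-CD8 cells. The 3 genes that are in the rule by symbol only, Hspbp1, Hspbap1 and Hspb11, were not called either.

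A list of 53 partner genes, written from general knowledge and chosen with earlier results of these data known, gave the rest of the machinery; 48 were measured. In CD172a DCs against CDPs 31 of 48 were called lower (64.6%, where 14.2% of all genes were), with a median of -0.79, against 0.13 for all genes, and none higher. The 3 with the largest differences were Cdc37, which loads kinases onto HSP90 (-2.25, SE 0.25, adjusted p = 3.13e-05), Fkbp4, an HSP90-bound immunophilin (-1.75, SE 0.21, adjusted p = 6.8e-05), and Bag1, an HSP70 exchange factor (-1.71, SE 0.24, adjusted p = 0.000177). In CD24 DCs against CDPs 20 were lower (41.7%, against 12.9% of all genes, median -0.55), led by Fkbp4 (-1.31, SE 0.19), Stip1, which bridges HSP70 and HSP90 (-1.06, SE 0.18), and Fkbp5 (-1.05, SE 0.21). The median of the 68 members in the same comparisons was -0.12 and -0.07. The interquartile range was 2.17 and 2.35 on the CD172a arrays, 2.10 to 2.59 on the CD24 arrays and 2.67 to 2.86 on the CDP arrays. Its part in the partner differences was not tested, and the share of all genes takes in dim genes.

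Fewer partner genes were called within the marrow. Fkbp4 was the only one in pre-CD8 cells against CDPs (2.08% of the list, against 2.47% of all genes lower; -1.0, SE 0.21, adjusted p = 0.0142). In pre-CD4 cells against CDPs 6 were lower (12.5%, against 2.23% of all genes), led by Trap1, the mitochondrial HSP90 (-1.18, SE 0.28, adjusted p = 0.0266), St13, an HSP70 partner (-1.03, SE 0.23, adjusted p = 0.021), and Fkbp4 (-1.02, SE 0.21, adjusted p = 0.0131). In both spleen DCs against both pre-DCs 13 were lower (27.1%, against 10.8%) and 1 higher (2.08%, against 6.9%). Hsbp1, a binder of heat-shock factor 1, was lowest (-1.04, SE 0.19, adjusted p = 0.00178), then Cdc37 (-0.95) and the prefoldin subunit Vbp1 (-0.94). Bag3, named after its value was seen, was the higher one (0.66). Cdc37 was at 6.23 and 6.81 in CD172a DCs, while CD24 DCs (7.96 to 8.56) overlapped with the pre-DCs (7.96 to 8.67). In CD172a DCs against pre-CD4 cells 8 were lower (16.7%, against 8.02%), led by Cdc37 (-1.65), Hsbp1 (-1.58) and Bag1 (-1.26). In CD24 DCs against pre-CD8 cells the prefoldin subunit Pfdn6 was lower (-1.01, SE 0.24, adjusted p = 0.0247) and Bag3, an exchange factor that rises in stress, was higher (0.78, SE 0.22, adjusted p = 0.0483). In CD24 against CD172a DCs 10 were higher (20.8%, against 3.21%) and none lower, led by Cdc37 (1.76, SE 0.25, adjusted p = 0.000729) and the reticulum proteins Sdf2l1 (1.20, SE 0.27, adjusted p = 0.0167) and Hyou1 (1.16, SE 0.19, adjusted p = 0.00214). Between pre-CD8 and pre-CD4 cells limma called 0, with 1 at an unadjusted p under 0.05.

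Immediate-early genes, which often rise while tissue is dissociated, were given beside the inducible chaperones. Of 26 listed, with no heat-shock gene among them, 20 were called higher in both spleen DCs than in both pre-DCs (76.9%, against 6.9% of all genes), with a median of 1.19. In CD24 DCs against CDPs 19 were higher (73.1%, against 8.32% of all genes) and in CD172a DCs 21 (80.8%, against 8.68%), with medians of 2.13 and 2.05. Within the undigested marrow 8 were higher in pre-CD8 cells (30.8%, against 2.29%) and 4 in pre-CD4 cells (15.4%, against 2.32%) than in CDPs. Between the digested spleen populations limma called 0, with 2 at an unadjusted p under 0.05. Their mean level on an array was 6.81 to 7.10 in CDPs, 7.44 to 7.63 in the pre-DCs and 8.65 to 9.46 in the spleen DCs, so that CDPs were lowest and spleen DCs highest, as they were for Hspa1a and Hspa1b. Their part in the result was not tested.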

How the data were processed

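Total RNA from sorted cells was amplified with a whole-transcript kit (NuGEN Ovation Pico WTA), biotin-labelled and hybridised, per the labels' protocols. The authors deposited log2 values per probe set; the normalization behind them is not given in the sources used here, and no detection calls were used, so precision rests on the number of arrays. Of 35145 probe sets, 23521 had 1 gene symbol, 1814 had several and 9810 had none; the last 2 kinds were left out of tests. The highest-mean probe set stood for each of 22180 genes. A linear model with 5 population means over all 12 arrays was fitted with limma 3.58.1 (R 4.3.3), with two-sided p-values adjusted by Benjamini-Hochberg over all genes and a threshold of 0.05. The procedure was tested on simulated data. Groups came from sample titles. The text names a fixed panel of stress and organelle chaperones, plus, in each comparison, the 12 called members with the largest differences and up to 3 called partner genes. Members and lists were chosen with earlier results of these data known, and the comparisons of spleen DCs with CDPs were added after values had been seen. Alternatives changed the probe-set rule, the normalization, a filter on dim genes, covariates, array weights, the arrays and groups in the fit, and the replicate block. Figures were drawn with matplotlib 3.10.9.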

Additional observations from a re-analysis of the deposited data

How the results depend on the processing

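No called difference reversed under any alternative: 76 called differences gave 1499 alternative values, of which 1190 kept direction and call and 309 lost the call, and 56 of the 76 lost it at least once; the cause was not tested. The calls that held throughout included Hspa9 in all 4 comparisons with CDPs. Counts of members called moved as follows. Leaving out 1 array gave 2 to 6 calls in pre-CD8 cells against CDPs (5 with all arrays), 2 to 5 in pre-CD4 cells against CDPs (4), 0 to 0 between pre-CD8 and pre-CD4 cells (0), 0 to 6 in CD24 against CD172a DCs (7), 0 to 5 in CD24 DCs against pre-CD8 cells (4), 3 to 12 in CD172a DCs against pre-CD4 cells (9), 6 to 16 in both spleen DCs against both pre-DCs (12), 0 to 0 in the maturation difference (0), 12 to 20 in CD24 DCs against CDPs (18) and 10 to 20 in CD172a DCs against CDPs (17). The count of 0 between spleen populations came without CD172a array 1, that against pre-CD8 cells without pre-CD8 array 1, that of 3 against pre-CD4 cells without pre-CD4 array 1, that of 6 without the first pre-CD4 or pre-CD8 array, and that of 10 without CD172a array 1. Without the 5 arrays numbered 1, the counts were 2 in pre-CD8 cells against CDPs, 1 between the spleen populations, 1 in CD24 DCs against pre-CD8 cells, 2 in CD172a DCs against pre-CD4 cells, 3 in both spleen DCs against both pre-DCs and 10 in CD172a DCs against CDPs. With the interquartile range of the array as a covariate they were 2 in CD24 DCs against pre-CD8 cells, 2 in CD172a DCs against pre-CD4 cells, 6 in both spleen DCs against both pre-DCs, 1 in the maturation difference, and 9 and 10 in CD24 and CD172a DCs against CDPs. Among the calls against CDPs lost with this covariate were Hspa1a in CD24 (adjusted p = 0.0637) and CD172a DCs (0.194). Dnajb13 in CD24 DCs (0.173), Hsp90b1 in CD172a DCs (0.0527) and Dnajc11 in both were others. Array weights gave 10 in pre-CD4 cells against CDPs, 7 in CD24 DCs against pre-CD8 cells, 1 in the maturation difference and 30 in CD24 DCs against CDPs. With only the groups compared in the fit, 1 was called between the spleen populations and 0 in CD24 DCs against pre-CD8 cells.

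The labels do not say what the replicate numbers mark, and the main fit did not pair arrays by them. Deviations of same-numbered arrays correlated at 0.10 to 0.42 in the 13 pairs without CD172a DCs, so a shared effect of the number is possible there. They correlated at -0.16 to 0.02 in the 8 pairs with CD172a DCs. In populations of 2 arrays the deviations mirror each other, so these pairs are not separate evidence. With the number as a replicate block, 1 member was called between pre-CD8 and pre-CD4 cells and 14 in CD172a DCs against pre-CD4 cells. The block ended 6 called differences: Hsph1 (1.69, adjusted p = 0.0639) and Dnajc9 (-0.98, adjusted p = 0.051) in CD24 DCs against pre-CD8 cells, Dnajb11 (0.95, adjusted p = 0.0614) and Dnajb13 (1.18, adjusted p = 0.0713) between the spleen populations, and Hspa2 (-0.43, adjusted p = 0.0649) and Dnajc7 (-0.45, adjusted p = 0.0501) in both spleen DCs against both pre-DCs.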
